A study of Fundulus heteroclitus with 6 samples.

Results

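Within the limits given below, 79 of 22732 isogroups in Atlantic killifish embryos had reads with PCB-126 in the New Bedford Harbor (NBH) population. None of the 79 had reads with the solvent DMSO in either population. An isogroup is a set of contigs that an assembler takes as the product of 1 gene. Members were chosen by their measured counts, which were 0 in both DMSO libraries, at least 10 in the NBH library with PCB-126 and fewer than 10 in the Scorton Creek (SC) library with PCB-126. The differences that these limits fix are therefore given as a description, without a test. The table identifies isogroups by number alone, so that no member could be given a gene name, a role, a sequence or a place in the genome.

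Embryos came from wild-caught parents of NBH, a PCB-contaminated site whose fish are resistant to PCBs, or of SC, a reference site with sensitive fish. All embryos of a site descend from 8 females and 5 males, so that family and population cannot be told apart. According to the methods, embryos were exposed to 50 nM PCB-126 or to 0.1% DMSO for 1 h from 4 hours post-fertilization and collected at 10 days post-fertilization (dpf), whereas the sample labels give 6 h of treatment. RNA of 3 pools of 20 embryos was combined into 1 library for each of NBH with PCB-126, NBH with DMSO, SC with PCB-126 and SC with DMSO, and these whole-embryo libraries were anchored at the 3′ end of transcripts and sequenced by pyrosequencing. No library was repeated, so nothing measures the spread between embryo pools, and all intervals below cover counting error only.

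PCB-126 is a planar PCB and a ligand of the aryl hydrocarbon receptor (AHR). With a ligand bound, the AHR enters the nucleus, pairs with its partner ARNT and binds DNA near its target genes, of which the cytochrome P450 enzymes of the CYP1 family are the best known. In fish embryos, strong activation of the receptor by dioxin-like compounds goes with edema around the heart and poor circulation. The study asked how far such responses are reduced in the resistant population. None of the 79 isogroups could be tied to the AHR pathway by name.

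In NBH, the counts summed to 123644 reads with PCB-126 and to 95410 with DMSO. In SC, they summed to 132893 reads with PCB-126 and to 124000 with DMSO. Except for SC with PCB-126, these sums lie below the lowest number of reads that the paper gives for a library. In SC with PCB-126 no isogroup had more than 1476 reads, fewer than the paper matched to the CYP1 enzyme CYP1A there. Percentages of a library below are therefore of counted reads, which do not hold all reads sequenced. By counting error alone, a count of 0 allows up to 3 counts. These are 0.00314% of the reads for NBH with DMSO, the shallowest library, 0.00226% for SC with PCB-126 and 0.00242% for SC with DMSO. Reads lost or split between isogroups in matching are not covered by these 3 counts, and their effect was not tested. The absence of a member from a DMSO library is therefore not shown, and each ratio over DMSO below is a lower bound with the DMSO count set to 3 counts per library. In bulk RNA, fewer cells that express a transcript and less transcript per cell cannot be told apart.

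Most members had few reads. Reads in NBH embryos with PCB-126 ran from 10 to 185 with a median of 12. In all, 18 members had exactly 10 reads, 61 (77.2%) had 10 to 14, and 5 had 20 or more. Among the 2182 isogroups with at least 10 reads in that library, of which the members were 3.62%, the median was 17 reads, which 8 members exceeded, and 38.6% had 10 to 14. Together the members held 1211 reads in NBH embryos with PCB-126, or 0.979% of the library (exact 95% Clopper-Pearson interval 0.925% to 1.04%). In SC embryos with PCB-126 they held 42 reads (0.0316%). The rule set the direction of this difference, and the interval does not cover the choice of members by their counts.

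**Figure D1:**
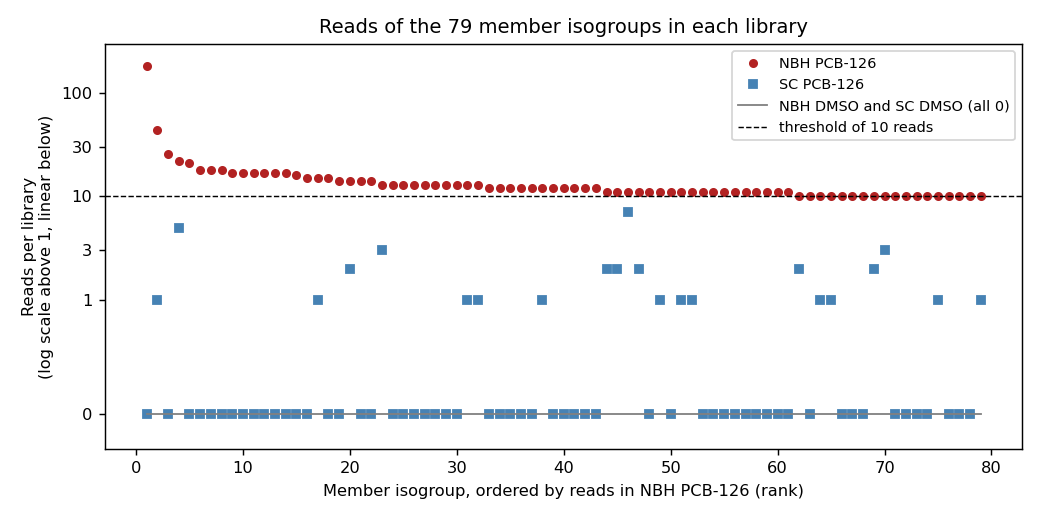
Each member's reads per library (y axis, logarithmic above 1 read), with the 79 members ordered along the x axis by reads in NBH embryos with PCB-126 (circles). Squares are SC embryos with PCB-126, 57 of them at 0, the grey line marks both DMSO libraries, all at 0, and 1 member at 185 reads stands above the next at 44.

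**Figure D2:**
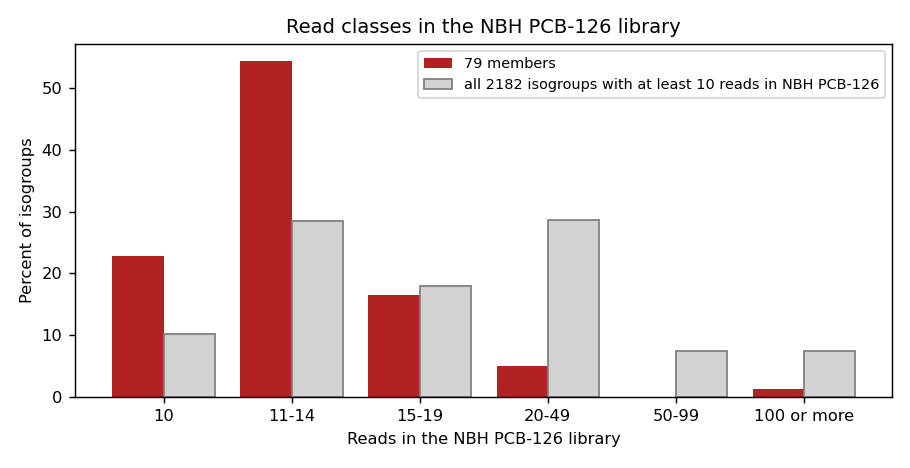
Percent of isogroups (y axis) in classes of reads in NBH embryos with PCB-126 (x axis), for the 79 members and for all 2182 isogroups with at least 10 reads there. The members fall mostly in the classes from 10 to 14 reads, with none from 50 to 99 and 1 at 100 or more.

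Isogroup22580 had the most reads. It had 185 reads in NBH embryos with PCB-126 and 0 in NBH embryos with DMSO, in SC embryos with PCB-126 and in SC embryos with DMSO. It was thus seen in a single library, at 149.6 reads per 100000 (exact 95% interval 128.9 to 172.8), and was number 71 in that library by reads. The bound was 47.6-fold over NBH with DMSO (exact 95% lower limit, with the counting error of both counts, 38.3). Over SC with DMSO the bound was 61.8-fold (lower limit 49.8). With the count of SC with PCB-126 likewise set to 3, the bound over that library was 66.3-fold (lower limit 53.4). This isogroup alone held 15.3% of the members' reads, and without it the other 78 held 1026 reads or 0.830% of the library.

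Isogroup09084 came next, with 44 reads in NBH embryos with PCB-126, 0 in NBH with DMSO, 1 in SC with PCB-126 and 0 in SC with DMSO. Its bound in NBH with PCB-126 over NBH with DMSO was 11.3-fold (lower limit 8.82). Its ratio of NBH over SC with PCB-126 was 47.3, an estimate that the single SC read leaves wide (exact 95% interval 8.06 to 1910). Isogroup12342 had 26 reads in NBH embryos with PCB-126 and 0 in each of the other 3 libraries, with a bound of 6.69-fold over NBH with DMSO (lower limit 5.06). By reads these were numbers 363 and 683 of all isogroups in the same library.

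Of the rest of the 10 members of most reads, isogroup04830 had 22 reads in NBH embryos with PCB-126 and 5 in SC embryos with PCB-126. The other 6 had reads in NBH with PCB-126 alone, with 21 for isogroup13657, 18 for each of isogroup12673, isogroup13494 and isogroup15073, and 17 for isogroup05134 and isogroup06907, which are the lowest numbered of 6 members at 17 reads. For these 6 the bound over NBH with DMSO ran from 4.37-fold to 5.40-fold. The 10 largest members held 386 reads, 31.9% of those of all members.

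Over all members the bound of NBH with PCB-126 over NBH with DMSO ran from 2.57 to 47.6 with a median of 3.09. The median of the exact 95% lower limits was 2.14. Over SC with DMSO, a deeper library, the median bound was 4.01 and the median lower limit 2.79. By the rule all 79 members passed a ratio of 2 in NBH with PCB-126 over NBH with DMSO. Of the 3691 isogroups with at least 10 reads in that pair, 27.3% did so in the same direction. Against SC with DMSO all 79 likewise passed, where 26.5% of 4037 isogroups did. The rule used both contrasts, so nothing is read from these counts, but a ratio of 2 between single libraries was common.

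SC embryos with PCB-126 had no reads of 57 members (72.2%), which were therefore seen in the NBH library with PCB-126 alone. A single read was found for 12 members, 2 reads for 6 and 3 reads for 2, so that 2 members were above 3 counts in SC. Members with reads in SC with PCB-126 had a median of 11 reads in NBH with PCB-126, and those without had 12. By the rule, NBH was above SC with PCB-126 for each member in reads, and 78 of 79 passed a ratio of 2 in that direction, where 24.9% of 4234 isogroups did. The rule used this contrast too, so nothing is read from that count.

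The members of most SC reads with PCB-126 were isogroup05598, isogroup04830 and isogroup01130. Isogroup05598 had 11 reads in NBH embryos with PCB-126 and 7 in SC embryos with PCB-126, and 0 in both DMSO libraries. Its ratio of NBH over SC with PCB-126 was 1.69 with an interval that includes 1 (exact 95% interval 0.598 to 5.14). The rule used these counts, so the interval is a description and not a test. In SC its 7 reads gave a bound of 2.18-fold over SC with DMSO (lower limit 1.34).

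Isogroup04830, with 22 reads in NBH and 5 in SC with PCB-126, had a ratio of 4.73 (interval 1.75 to 16.0). In SC its 5 reads gave a bound over DMSO of 1.56, with a lower limit of 0.855, which is below 1. Isogroup01130 had 13 reads in NBH and 3 in SC with PCB-126, a ratio of 4.66 (interval 1.28 to 25.5). Isogroup08912, also with 3 SC reads, had 10 in NBH with PCB-126, a ratio of 3.58 with an interval that includes 1 (0.922 to 20.3).

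The counts ran on across the limits of the rule. At 10 reads in NBH with PCB-126 there were 18 members, and just outside, 34 isogroups had 9 reads and 45 had 8 with the other limits met. A further 42 isogroups met the limits in both PCB-126 libraries and had 1 DMSO read in all, 27 of them in NBH and 15 in SC. Isogroup14259 was the largest of these 42, with 45 reads in NBH with PCB-126, 0 in NBH with DMSO, 2 in SC with PCB-126 and 1 in SC with DMSO. It had 1 read more in NBH with PCB-126 than isogroup09084 and is no member because of its single DMSO read.

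Only isogroup09834 had at least 10 reads in both PCB-126 libraries and none with DMSO in either population, with 16 in NBH and 14 in SC. The members and this isogroup are all 80 isogroups with at least 10 reads in NBH with PCB-126 and none with DMSO.

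To place the count of 79 among like counts, the same limits were applied with the libraries in every other role. Each arrangement takes 1 library with at least 10 reads, 1 with fewer than 10 and the other pair at 0, which gives 11 arrangements beside that of the members. They picked 55 to 96 isogroups with a median of 75, so that the 79 members lay within the range. NBH with PCB-126 gave 79 isogroups when both DMSO libraries were empty, 82 when both SC libraries were empty, and 75 when NBH with DMSO and SC with PCB-126 were empty. The other 3 arrangements with an empty treatment gave 91 for SC with PCB-126, 55 for NBH with DMSO and 63 for SC with DMSO.

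As a share of the isogroups with at least 10 reads in their library, the members were 3.62%, against 2.92% to 4.32% in the other 11 arrangements. As a share of all reads they were 0.979%, against 0.659% to 1.16%. Median reads were 12 for the members and 12 to 13 for the other sets. These sets share libraries and in part isogroups, so they were not tested against each other. All 57 members seen in a single library are also picked when NBH with PCB-126 is set against both SC libraries or against NBH with DMSO and SC with PCB-126. This overlap is fixed, since such isogroups meet the limits of each of these arrangements. The 57 are 72.2% of the members, 69.5% of the 82 and 76.0% of the 75.

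**Figure D3:**
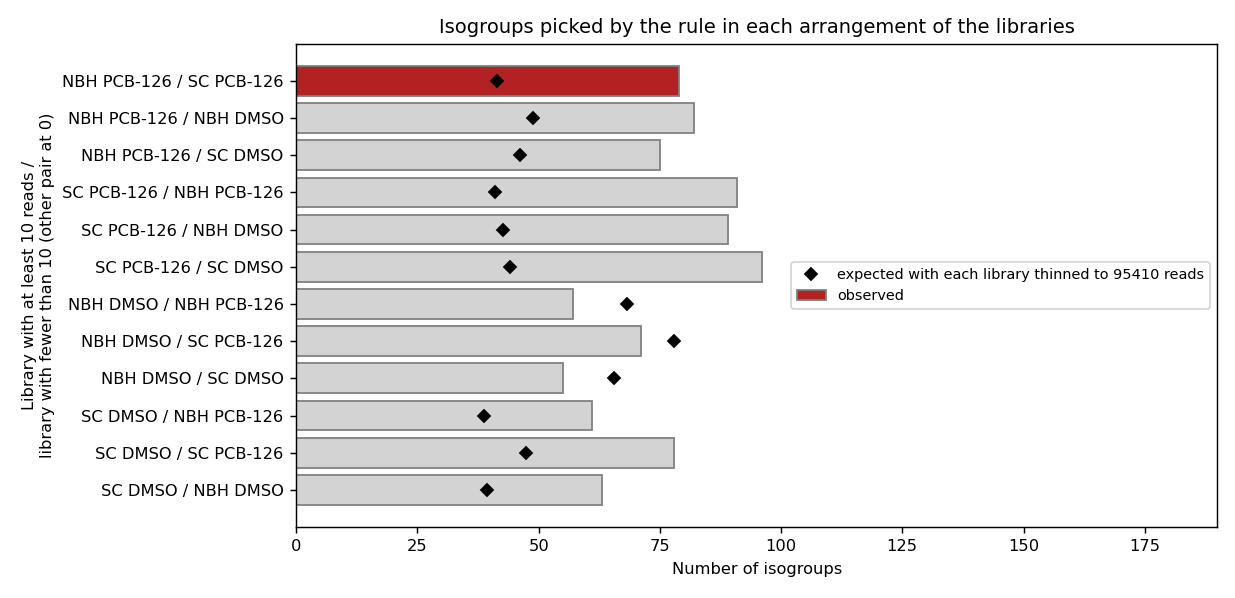
Number of isogroups (x axis) that the rule picked in each arrangement of the 4 libraries (y axis, the library with at least 10 reads and then the one with fewer than 10, the other pair being at 0). Bars are observed numbers, the 79 members in red, and diamonds are expected numbers with every library thinned to 95410 reads, where the members' arrangement gave 41.4 and the 3 with NBH DMSO reads gave the highest.

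Depth entered these counts. With every library thinned to 95410 reads, the expected number was 41.4 for the members' arrangement, 41.0 for SC with PCB-126, 65.6 for NBH with DMSO and 39.4 for SC with DMSO, all with an empty treatment. Over the other 11 arrangements the thinned numbers ran from 38.8 to 77.9 with a median of 46.1. At equal depth the members' arrangement was thus among those with fewer isogroups, and the 3 in which NBH with DMSO held the reads had the most.

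Reads in the library limited to fewer than 10 were found for 22 of the 79 members (27.8%), where that library is SC with PCB-126. In the other 11 arrangements the share ran from 12.7% to 37.2% with a median of 28.1%. With every library thinned to 95410 reads, the expected share was 22.3% for the members' arrangement and 16.4% to 35.7%, with a median of 30.2%, for the others. The shares were not tested against each other. Isogroups with at least 10 reads in 1 library and none in the other 3 numbered 57 in NBH with PCB-126, 64 in SC with PCB-126, 48 in NBH with DMSO and 49 in SC with DMSO. These are 2.61%, 2.80%, 2.92% and 2.35% of the isogroups with at least 10 reads in those libraries.

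The highest counts differed more than the numbers of isogroups. Where a PCB-126 library held the reads, the largest isogroup had 185 reads in each of the 3 NBH arrangements and 150 to 210 in those of SC. Where a DMSO library held them it had 30 in NBH and 20 to 34 in SC. In NBH with PCB-126 this height is that of isogroup22580 alone, since the next member had 44 reads. In SC with PCB-126 it also rests on few isogroups. With both DMSO libraries empty, the largest had 210 reads and the next 150. In the other SC arrangements with PCB-126 the largest had 150 and the next 37. With DMSO the second largest had 20 to 27. This difference was not tested.

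The members' numbers in the table were not used by the rule. Their median number was 12673, against 3524 for all 1233 isogroups with 10 to 19 reads in NBH with PCB-126. The rule limits the members' reads in the other libraries and does not limit those of the 1233, so these sets are not matched in total reads. Numbers were lower in sets of more reads, with a median of 2657 for isogroups with at least 10 reads in NBH with PCB-126. Over all isogroups the median number was 11366.5. Only 11 members (13.9%) were numbered from 1 to 5683, where 69.7% of those 1233 isogroups were, and 36 (45.6%) were numbered from 11367 to 17049, where 8.03% were. Isogroup22580 was the last in number of the members and isogroup00536, with 14 reads in NBH with PCB-126 and none elsewhere, the first.

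The last range, from 17050 to 22732, held 14 members (17.7%) and 25% of all isogroups. A place like that of the members was shared by isogroups of the same kind from any library. Median numbers in the other 11 arrangements ran from 12190 to 13326, around that of the members. Isogroups with 10 to 27 reads over the 4 libraries, a set limited in total reads, had a median number of 5819, between the others. Of these, 48.8% were numbered from 1 to 5683 and 13.3% from 11367 to 17049. The members thus differed less from this set than from the 1233 isogroups. The sources used here do not give what sets the order of the numbers, so the place is reported as a description.

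**Figure D4:**
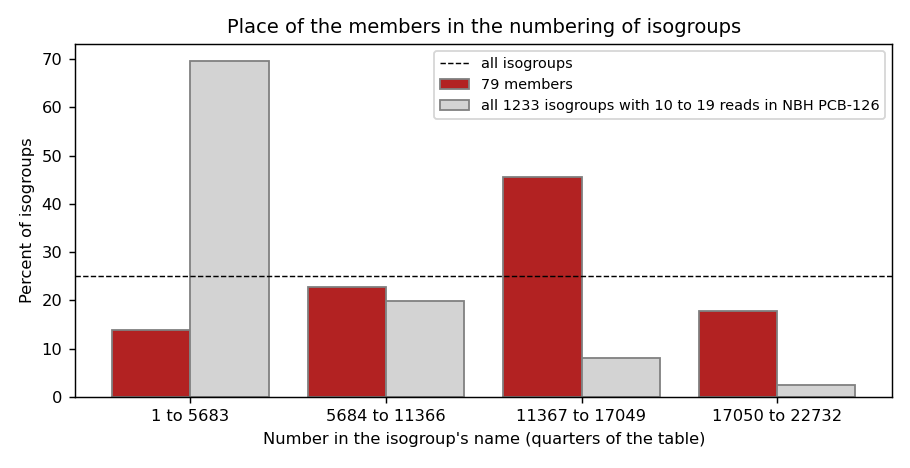
Percent of isogroups (y axis) by the number in their name, in 4 equal ranges of the table (x axis), for the 79 members and for all 1233 isogroups with 10 to 19 reads in NBH with PCB-126. The members lie later than these 1233 isogroups, with 45.6% numbered from 11367 to 17049. The dashed line marks the 25% that all isogroups have in each range.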

How the data were processed

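The deposited table holds counts, which the authors gave as whole reads of each isogroup in each library, without normalization, under headings of unique matching reads. The methods name the assembler Newbler for the shotgun data and BlastStation-Local for the search of raw reads with array probes, and state neither for this table, so how its reads were assembled, matched and counted is not known here. In all, 7 blank cells in the last 4 rows were read as 0. The 2 shotgun libraries of untreated embryos were not analysed here. The RefSeq gene table given for the species holds no isogroup numbers and was not used.

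Library size was the sum of counts, 95410 to 132893 reads. Ratios are of reads per library total, with 0 set to 3 counts for a bound and counts of 1 or 2 unchanged. They have exact 95% Clopper-Pearson limits. Background shares count isogroups with at least 10 reads in a pair and a ratio of at least 2. With 1 library per condition and a rule that used every count, no test was run. Expected numbers at equal depth came from the hypergeometric distribution. Alternatives were other minimum reads, limits, floors and ratios, and library sizes by TMM (edgeR 4.0.16) or DESeq2 1.42.0; library sizes for the members' ratios over SC were added after seeing the data. Computations used Python 3.11.15, numpy 2.4.6, scipy 1.17.1, pandas 2.3.3, matplotlib 3.10.9 and R 4.3.3, and were tested on simulated data.

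Members, lists and rules were chosen with earlier results of these data known. The named isogroups are the 10 members of most reads in NBH with PCB-126 and the 3 of most reads in SC with PCB-126. Ties in the first list went to the lower number. In the second list ties went to more reads in NBH with PCB-126, then to the lower number. Isogroup08912, isogroup14259, isogroup09834 and isogroup00536 were named after their values were seen.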

Additional observations from a re-analysis of the deposited data

How the results depend on the processing

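The number of members followed the limits. It was 451 with at least 5 reads in NBH with PCB-126, 5 with at least 20 and 2 with at least 30, against 79, and 121 when up to 1 DMSO read was allowed. Thinned to 95410 reads it was 41.4. It stayed within 1.5 times of 79 with 77 members at fewer than 5 reads in SC with PCB-126, 57 at 0 reads, 80 without a limit and 79 without the rows with a blank. The median over the 11 other arrangements moved likewise, to 428, 7 and 1 with at least 5, 20 and 30 reads and to 46.1 when thinned, against 75. The members' median bound over NBH with DMSO was 3.09, from 3.08 to 3.15 with other library sizes, and 9.26 with a floor of 1 count. The members' share of the reads in NBH with PCB-126, 0.979%, also followed the limits. It was 2.87% with at least 5 reads there, 0.241% with at least 20 and 0.693% when thinned to 95410 reads. With fewer than 5 reads in SC with PCB-126 it was 0.953%, and 0.992% without a limit there.

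Isogroups past a ratio of 2 in NBH with PCB-126 over NBH with DMSO numbered 1008, from 1008 to 1016 with other library sizes. They were 1783 with at least 1 read in the pair and 148 with at least 30. At a ratio of 4, 365 of 3691 isogroups passed, among them 15 of the 79 members. Over SC with PCB-126, isogroups past a ratio of 2 numbered 1054, then 2213 and 154 at the same other minimum reads. There, 469 of 4234 passed a ratio of 4, among them 55 of the 79 members. Since the members' rule used both contrasts, no conclusion is drawn from the 15 and the 55. Only counts of 0 were raised to 3. A member with 10 reads in NBH thus had a ratio of 3.58 with 0 SC reads and 10.7 with 1. Members without SC reads could so fail a ratio of 4 that members with SC reads passed, and these counts of members depend on the floor. Ratios over SC with PCB-126 moved little with other library sizes, from 45.8 to 47.8 for isogroup09084, where the interval covers far more. Of the 79 members, 61 had 10 to 14 reads, close to the limit of 10, and depth limits what can be said of each. No paired analysis was possible because the 3 pools of each population and treatment were combined into 1 library.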
